A study of Mus musculus with 8 samples.

Results

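The genes described here encode histones, the proteins around which nuclear DNA is wound. They were taken by name from the deposited count table: every protein-coding row named in the H1f, H2ac, H2bc, H3c, H4c, H2az or H3f series, which gave 74 of 56748 rows. By name, 64 were classed as replication-coupled (6 of H1, 17 of H2A, 17 of H2B, 12 of H3 and 12 of H4). The other 10 were classed as replacement variants (H1f0, H1f7, H1f8, H1f9, H1f10, H2az1, H2az2, H3f3a, H3f3b and H3f4). On the chromosomes, 54 lie on chromosome 13, 11 on chromosome 3 and the rest on chromosomes 1, 6, 11 and 15. RNA came from primary wild-type fibroblasts of C57BL/6J mice, isolated from the whole heart on day 1 of life and kept for their adherence in a short plating step, with no sort by marker. The 4 untreated cultures received no agent, and the 4 treated cultures received TGF-β1, a cytokine that turns fibroblasts into matrix-making myofibroblasts, at 10 ng/mL for 48 h. Per the series design, replicates came from different litters. The comparison asks which transcripts the cytokine changed.

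Replication-coupled histone genes are switched on in S phase, when new DNA needs new nucleosomes, and their mRNAs usually end in a stem-loop in place of a poly(A) tail. SLBP binds that stem-loop and directs the processing, export and translation of the message. Replacement variants are made throughout the cell cycle from ordinary polyadenylated mRNAs and are put into chromatin outside replication. Some replication-coupled genes also yield longer transcripts that run past the stem-loop to a polyadenylation signal. The libraries were made from RNA selected by its poly(A) tail, so the values below are levels of tailed or carried-over histone RNA, and the stem-loop form as such was not measured.

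A stem-loop sequence was searched for in the 200 bases after each annotated stop codon (GENCODE M39, coding strand only). The search pattern was the histone form of this element, with most bases fixed. It is 16 bases long, with a fully paired stem of 6 base pairs and a loop of 4 bases. Other forms were not searched for, so the small number of sequences found follows in part from the pattern. Genes without a stem-loop, here and below, are genes without a match. The element was present in 63 of the 74 histone genes. These were 62 of 64 replication-coupled genes and 1 of 10 replacement variants, H3f4, which was put in that class by its name. Of 21483 coding genes searched, 69 (0.321%) had it, and the 6 outside the 74 were also named as histone genes: H2aw, H2ax, H2bu1-ps, H2bu2, H2bw2 and H4f16. The replication-coupled genes without a match were H2bc21 and H2ac22. The element began 21 to 58 bases after the stop codon, with a median of 30. The most frequent sequence was shared by 40 members, the next by 9 and the next by 7. The examples below were chosen to show the 3 replication-coupled genes with the highest level per length and 4 genes with fewer reads side by side. They were read from GRCm39, and capitals mark the stem-loop.
H1f2 (chr13:23923490-23923515, plus strand): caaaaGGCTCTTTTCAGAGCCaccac
H2bc4 (chr13:23868625-23868650, plus strand): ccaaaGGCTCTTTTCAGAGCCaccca
H4c9 (chr13:22225131-22225156, minus strand): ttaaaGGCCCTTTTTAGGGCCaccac
H3c15 (chr3:96145796-96145821, minus strand): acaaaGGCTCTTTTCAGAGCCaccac
H4c8 (chr13:23715623-23715648, plus strand): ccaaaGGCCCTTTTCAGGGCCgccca
H2bc11 (chr13:22227803-22227828, plus strand): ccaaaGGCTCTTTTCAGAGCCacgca
H4c17 (chr13:21996294-21996319, plus strand): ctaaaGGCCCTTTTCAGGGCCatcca

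H1f2, with the most reads of the replication-coupled genes, and H2bc11, with the fewest of those tested, carry the same 16 bases. A polyadenylation signal (AATAAA or ATTAAA, coding strand) lay in the last 50 bases of the gene model in 12 of 63 members with a stem-loop and in 8 of 11 without. Among all 21906 coding genes the share was 72.2%. The signal lay in 4 of 15 stem-loop members that passed the count filter described below and in 8 of 48 that did not. None was found there for H2bc4 or for H3f3b, which has the most reads of all 74 genes. H1f2 and H4c9 have both elements, the stem-loop first and the signal at the far end of the model. The signals of both, and of 3 replacement variants that have no stem-loop, are printed here with the signal in capitals.
H1f2 (chr13:23924313-23924342, plus strand): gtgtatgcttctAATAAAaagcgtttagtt
H4c9 (chr13:22224809-22224838, minus strand): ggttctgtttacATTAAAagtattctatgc
H1f0 (chr15:78914671-78914700, plus strand): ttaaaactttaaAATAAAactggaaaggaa
H2az2 (chr11:6377240-6377269, minus strand): caaatgcacagaAATAAAgaaactagcact
H1f10 (chr6:87957406-87957435, minus strand): ttcctggggcgcAATAAAcggttccaacct

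Library totals ran from 14340740 to 17176898 counts, and 0.136% to 0.150% of them fell on the 74 genes. Ribosomal RNA took 0.0332% of counts in untreated replicate 1, which set this library apart, since the range was 2.13% to 2.49% in untreated replicates 2 to 4 and 1.09% to 2.56% after treatment. Cardiac fibroblast markers summed to 13751 to 15218 CPM (counts scaled to a common library size) untreated and 18636 to 20010 CPM treated, with 3 of 7 called higher and 4 lower. Cardiomyocyte markers were also present, at a summed 764 to 831 CPM untreated and 422 to 503 CPM treated, with 11 of 12 called lower. Epicardial and mesothelial markers summed to 1045 to 1104 CPM and to 811 to 842 CPM, with 3 of 6 lower. Mural markers summed to 63.1 to 71.6 CPM and to 84.2 to 95.7 CPM, with 2 of 4 tested higher and 1 lower. Macrophage (27.7 to 42.1 CPM and 26.5 to 36.5 CPM, 1 of 7 tested higher and 1 lower) and endothelial markers (48.1 to 50.9 CPM and 51.7 to 55.0 CPM, 2 of 7 higher and 1 lower) were low. Erythroid markers summed to at most 1.13 CPM in any library, with Hba-a1, Hbb-bt and Slc4a1 at 0. Beside these counts, 17.6% of all genes tested were called higher and 18.5% lower. In bulk RNA, fewer cells of a type and less RNA per cell cannot be told apart. The part of these other cells in the results below was not tested.

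Most of the 74 genes were barely read. No read fell on 11 of them in any library, 1 to 10 reads in all 8 libraries together on 16, and 11 to 99 reads on 25. The count filter of edgeR kept the other 22, of which 16 were replication-coupled and 6 were replacement variants. Replacement variants took 71.6% of all reads on histone genes. Within the replication-coupled genes, H1f2 alone took 74.5% of the reads and H2bc4 another 12.2%, which left 6602 of 49768 reads for 62 genes.

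Per gene length (the authors' FPKM, mean ± SD, n = 4 untreated libraries), H1f2 was highest at 184.6 ± 8.11. The H3.3 gene H3f3b followed at 143.7 ± 4.70, then H3f3a at 81.6 ± 2.30, H1f0 at 77.8 ± 4.61, H2az1 at 62.1 ± 1.80 and H2bc4 at 41.5 ± 2.15. H3f3a and H1f0 lay within their spread of each other, as did H4c9 at 19.9 ± 2.41 and H2az2 at 17.8 ± 1.88. Every other member was below 5 FPKM. Distances past the stem-loop were taken along the genome, with introns included. Among the 63 genes with a stem-loop, the gene model ran more than 100 bases past it in 25, and 11 of these passed the count filter. It ended within 100 bases of the stem-loop, or before it, in 38, and 4 of these passed. The filter works on raw counts, and the part of model length or repeated sequence in this split was not tested. The median level was 0.361 FPKM in the first set and 0.141 FPKM in the second, while the 11 genes without a stem-loop had a median of 4.54 FPKM.

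**Figure D1:**
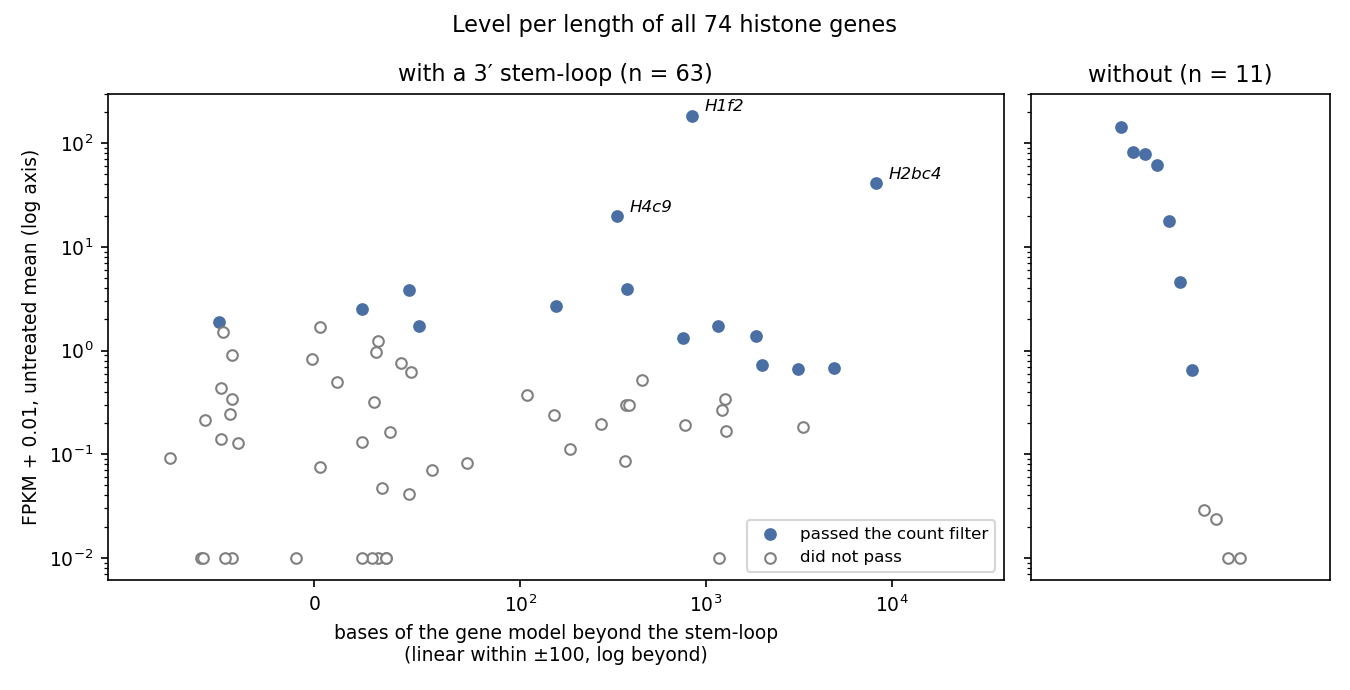
Level per length in untreated libraries (FPKM + 0.01, log axis) of all 74 histone genes. Left, 63 genes against the distance from the 3′ stem-loop to the end of the gene model, along the genome with introns included. For H2bc4 this distance is 8246 bases, while its gene length is 1156 bases. Right, the 11 genes without a stem-loop. Filled points passed the count filter. H1f2, H2bc4 and H4c9 stand above the other stem-loop genes, and all 3 have models that run more than 100 bases past the loop.

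The 64 replication-coupled genes together had 381.4, 389.9, 403.5 and 410.4 CPM in untreated replicates 1 to 4 and 406.1, 410.4, 432.7 and 438.8 CPM in treated replicates 1 to 4, with groups that met. The 58 core histone genes among them summed to 93.5 ± 2.93 CPM untreated and 93.7 ± 3.89 CPM treated (SD, n = 4 and 4). Of 16 replication-coupled genes tested, 1 was called lower (H4c9), 1 was called higher (H1f2) and 14 were not called (quasi-likelihood test of edgeR, called at a p under 0.05 after adjustment over all genes). Of the 6 replacement variants tested, 3 were lower (H1f10, H2az2 and H1f0), 1 was higher (H3f3b) and 2 were not called. Among all 13960 genes tested, 36.0% were called, 17.6% higher and 18.5% lower, and with library totals in place of TMM scaling the split was 1304 higher and 3670 lower against 2451 and 2579. Against this background, 6 of 22 tested histone genes were called, 2 higher and 4 lower. The median log2 fold change was 0.04 for replication-coupled genes, −0.12 for replacement variants and 0.01 for all genes tested.

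H1f2 encodes a linker histone, which binds the DNA that enters and leaves the nucleosome (ENSMUSG00000036181, GRCm39 chromosome 13, 23922791 to 23924350, plus strand). It was counted at 282.0, 282.0, 297.2 and 307.7 CPM in untreated replicates 1 to 4 and at 299.8, 307.9, 333.2 and 328.9 CPM in treated replicates 1 to 4. The groups overlapped, with 3 treated libraries above all untreated ones. The log2 fold change was 0.12 ± 0.04 (SE, 95% interval 0.03 to 0.21, edgeR adjusted p = 0.0297). The call was lost without untreated replicate 1, 2 or 3 or treated replicate 3 or 4 (edgeR adjusted p = 0.0930, 0.0978, 0.0502, 0.122 and 0.0826). It was also lost with upper-quartile scaling (0.0569), with library totals (0.526) and with limma on log2 FPKM at both pseudocounts (0.0694 and 0.0692).

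The other replication-coupled linker histones were far less counted. H1f4 had 3.38 ± 0.22 CPM untreated and 4.27 ± 1.09 CPM treated (SD, n = 4 and 4), with treated replicate 1 highest at 5.84 CPM, and it was not called (log2 fold change 0.33 ± 0.19, edgeR adjusted p = 0.179). Without treated replicate 1 the value was 0.15, and without other single libraries it reached 0.41. In GENCODE M39, 27.4% of its exonic bases lie under exons of other genes on the same strand, among them H2bc6, so its count is uncertain. H1f3 went from 5.03 ± 0.95 to 4.89 ± 0.45 CPM while H1f5 was at 1.01 to 1.92 CPM untreated and 0.632 to 1.31 CPM treated, neither called (log2 fold change −0.04 ± 0.16 and −0.36 ± 0.31, edgeR adjusted p = 0.874 and 0.399). For H1f5 it was −0.18 without untreated replicate 1, −0.17 without treated replicate 3 and down to −0.49 without other single libraries. H1f1 and the testis linker histone gene H1f6 did not pass the filter.

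H2B genes had the most reads among the core histones of the replication-coupled set, and none of the 6 tested was called. H2bc4 (ENSMUSG00000018102, chromosome 13, 23868182 to 23876891, plus strand) was counted at 46.5, 52.3, 47.8 and 48.1 CPM in untreated replicates 1 to 4 and at 52.0, 52.8, 47.4 and 53.4 CPM in treated ones. The groups overlapped. Its log2 fold change was 0.08 ± 0.06, with a 95% interval of −0.04 to 0.19 (edgeR adjusted p = 0.295). H2bc6 was at 6.20 ± 1.07 and 6.36 ± 0.47 CPM (SD, n = 4 and 4; log2 fold change 0.04 ± 0.14). H2bc21, H2bc8, H2bc23 and H2bc11 had 1.05 to 2.05 CPM as group means, with log2 fold changes of 0.27, 0.03, 0.41 and −0.18. These rest on few reads: without single libraries H2bc21 ran from 0.04 (treated replicate 1 left out) to 0.47 (untreated replicate 4), H2bc23 from 0.25 (treated replicate 4) to 0.63 (treated replicate 2) and H2bc11 from −0.35 (treated replicate 1) to −0.05 (treated replicate 4), none called. Every 64-base window of H2bc23 occurs again elsewhere in the genome, so its reads cannot be placed with certainty. The share was 55.0% for H2bc11 and 48.5% for H2bc8, against 14.7% for H2bc4, 4.19% for H2bc6 and 0% for H2bc21. The sum over all 17 H2B genes was 60.1 to 66.6 CPM untreated and 62.4 to 68.4 CPM treated.

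H4c9 was the replication-coupled gene that was called lower (ENSMUSG00000060639, chromosome 13, 22224806 to 22225532, minus strand). It encodes histone H4, whose protein is the same from nearly all H4 genes. Its level was 12.8, 14.1, 17.1 and 14.8 CPM in untreated replicates 1 to 4 and 10.5, 11.1, 12.7 and 12.9 CPM in treated replicates 1 to 4. Only treated replicate 4 reached the lowest untreated library. The log2 fold change was −0.32 ± 0.10 (SE, 95% interval −0.53 to −0.10, edgeR adjusted p = 0.0207). The call was lost without untreated replicate 3 or treated replicate 1 or 2 (edgeR adjusted p = 0.0825, 0.0701 and 0.0558). Of its 64-base exonic windows, 25.3% occur elsewhere in the genome. H4c8, the other H4 gene tested, was at 1.82 ± 0.23 and 1.88 ± 0.30 CPM (SD, n = 4 and 4). Of its exonic bases, 98.1% lie under antisense exons, so its count is uncertain without the strand setting. For H4c8, 44.0% of the 64-base windows occur elsewhere.

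H2A and H3 genes of the replication-coupled set were hardly seen. H2ac6 was the only H2A gene tested of 17, at 1.82 ± 0.45 and 1.54 ± 0.52 CPM (SD, n = 4 and 4; log2 fold change −0.22 ± 0.28). Its fold change was −0.51 without treated replicate 4 and −0.13 without treated replicate 2, the ends of the range over single libraries left out, and it was called in none. Of its exonic bases, 16.7% lie under antisense exons, and H2bc4 is among the overlapping genes. H3c15, an H3 gene of the chromosome 3 cluster, had the highest H3 level at 4.02 ± 0.42 and 3.28 ± 0.24 CPM. It was not called (log2 fold change −0.29 ± 0.17, edgeR adjusted p = 0.194), but limma on log2(FPKM + 1) and log2(FPKM + 0.1) called it lower (adjusted p = 0.0322 and 0.0313), and 63.0% of its 64-base windows occur elsewhere. H3c4 was at 1.66 ± 0.44 and 1.39 ± 0.51 CPM (SD, n = 4 and 4; log2 fold change −0.24 ± 0.30). Its fold change was −0.0072 without treated replicate 1, −0.057 without untreated replicate 3 and down to −0.36 without other single libraries, with no call. H3c2 was at 2.06, 0.53, 0.81 and 0.89 CPM in untreated replicates 1 to 4 and at 2.25, 1.59, 1.62 and 1.67 CPM in treated ones. Untreated replicate 1 alone reached the treated range. The log2 fold change of 0.73 ± 0.34 was not called (edgeR adjusted p = 0.0972), but it was 1.24 without untreated replicate 1 (edgeR adjusted p = 0.00489). It was also called with the replicate number as a block (edgeR adjusted p = 0.0495). Of the 64-base exonic windows of H3c2, 59.4% occur elsewhere in the genome.

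The 48 replication-coupled genes that did not pass the filter together had only 101 to 172 reads per library. Their sum was 8.32 ± 0.73 CPM untreated and 8.26 ± 1.42 CPM treated (SD, n = 4 and 4), and the groups overlapped. H4c17 had the most reads of them, 89 over all libraries. A median of 49.8% of the 64-base windows of these genes occurs elsewhere in the genome, against 15.2% for the 16 that were tested. Whether reads with several possible places were counted is not stated in the labels or the processing notes.

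**Figure D2:**
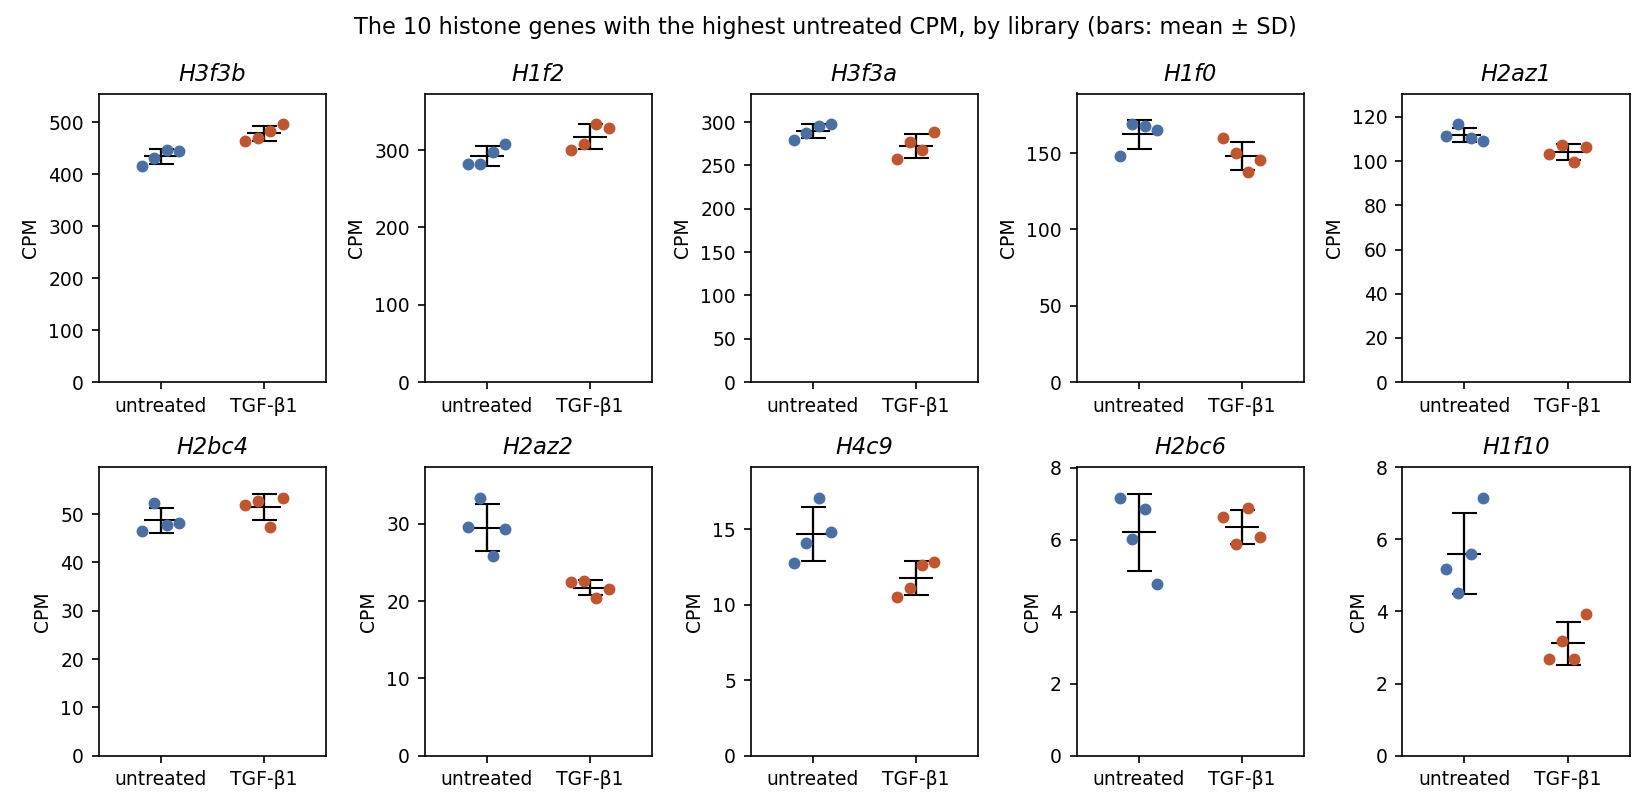
CPM in each of the 4 untreated and 4 TGF-β1 libraries for the 10 histone genes with the highest untreated CPM; points are libraries, bars the mean ± SD, and each axis starts at 0. The groups are apart for H3f3b, H2az1, H2az2 and H1f10 and overlap for the other 6. Of all 22 tested histone genes, 3 had every treated library below every untreated one and 1 had every treated library above. Over all 13960 genes tested, 2429 were apart with treated below and 2302 with treated above.

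Replacement variants were called in both directions. H3f3b and H3f3a encode the same H3 variant, the form placed in active chromatin and at sites of nucleosome turnover. H3f3b (ENSMUSG00000016559, chromosome 11, 115912738 to 115918788, minus strand) was counted at 415.0, 431.4, 446.1 and 443.5 CPM in untreated replicates 1 to 4 and at 464.0, 469.9, 483.3 and 495.4 CPM in treated ones. All treated libraries were above all untreated ones, and the log2 fold change was 0.14 ± 0.04 (SE, 95% interval 0.06 to 0.22, edgeR adjusted p = 0.00427). With library totals it was 0.06 and not called (edgeR adjusted p = 0.232).

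H3f3a (ENSMUSG00000060743, chromosome 1, 180628397 to 180641508, minus strand) had 279.9, 288.1, 296.0 and 297.4 CPM untreated and 257.0, 277.1, 267.5 and 288.2 CPM treated, in the order of the replicates. The groups overlapped, and the gene was not called (log2 fold change −0.09 ± 0.04, edgeR adjusted p = 0.0797). It was called lower without untreated replicate 1 or treated replicate 4 (edgeR adjusted p = 0.0350 and 0.0232), with upper-quartile scaling (0.0485) and with library totals (0.00229). Of its exonic bases, 16.9% lie under antisense exons. The 95% intervals of the 2 genes, 0.06 to 0.22 for H3f3b and −0.17 to −0.01 for H3f3a, did not meet, although the difference between the genes was not itself tested. The sum over all 10 replacement variants was 1034 ± 29.9 and 1028 ± 24.1 CPM (SD, n = 4 and 4).

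H2az1 and H2az2 encode the H2A.Z proteins, which mark promoters and regulatory DNA. H2az2 (ENSMUSG00000041126, chromosome 11, 6377229 to 6394443, minus strand) had 29.6, 33.4, 25.8 and 29.4 CPM in untreated replicates 1 to 4 and 22.5, 22.6, 20.4 and 21.6 CPM in treated replicates 1 to 4. All treated libraries lay below all untreated ones, and the fall was −0.44 ± 0.08 on the log2 scale (SE, 95% interval −0.60 to −0.28, edgeR adjusted p = 8.89e-05). H2az1 (ENSMUSG00000037894, chromosome 3, 137570248 to 137572683, plus strand), the more abundant gene, had 111.5, 116.6, 110.5 and 109.2 CPM untreated and 103.2, 107.5, 99.4 and 106.6 CPM treated. Its groups were also apart, but the change was small and not called (log2 fold change −0.10 ± 0.04, edgeR adjusted p = 0.0551). It was called lower without treated replicate 2 or 4 (edgeR adjusted p = 0.0436 and 0.0477), with a minimum count of 30 (0.0331), with upper-quartile scaling (0.0312), with library totals (0.00179) and with limma at both pseudocounts (0.0466 and 0.0479). Of its 64-base exonic windows, 32.4% occur elsewhere in the genome, and 19.1% of its exonic bases lie under antisense exons.

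Of the replacement linker histones, H1f10 changed most. H1f10 (ENSMUSG00000044927, chromosome 6, 87957403 to 87958619, minus strand) encodes the most divergent linker histone of body cells. It had 5.17, 4.50, 5.58 and 7.15 CPM in untreated replicates 1 to 4 and 2.68, 3.17, 2.67 and 3.93 CPM in treated ones, with no overlap. The log2 fold change was −0.84 ± 0.18 (SE, 95% interval −1.22 to −0.46, edgeR adjusted p = 0.000892), and 17.9% of its exonic bases lie under antisense exons.

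H1f0 (ENSMUSG00000096210, chromosome 15, 78912650 to 78914704, plus strand), a linker histone known to accumulate in cells that stop dividing, was called lower. It had 148.0, 168.7, 167.5 and 164.8 CPM untreated and 159.6, 150.1, 137.8 and 145.2 CPM treated, and the groups overlapped. Its log2 fold change was −0.13 ± 0.05 (edgeR adjusted p = 0.0394). The call was lost without untreated replicate 2, 3 or 4 or treated replicate 2, 3 or 4 (edgeR adjusted p = 0.117, 0.0890, 0.0900, 0.0540, 0.156 and 0.0869). It was also lost with limma at both pseudocounts (0.0945 and 0.0940) and with the replicate block (0.0559). The germ-cell variants H1f7, H1f8 and H1f9 and the stem-loop gene H3f4 had 0 to 9 reads over all libraries.

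**Figure D3:**
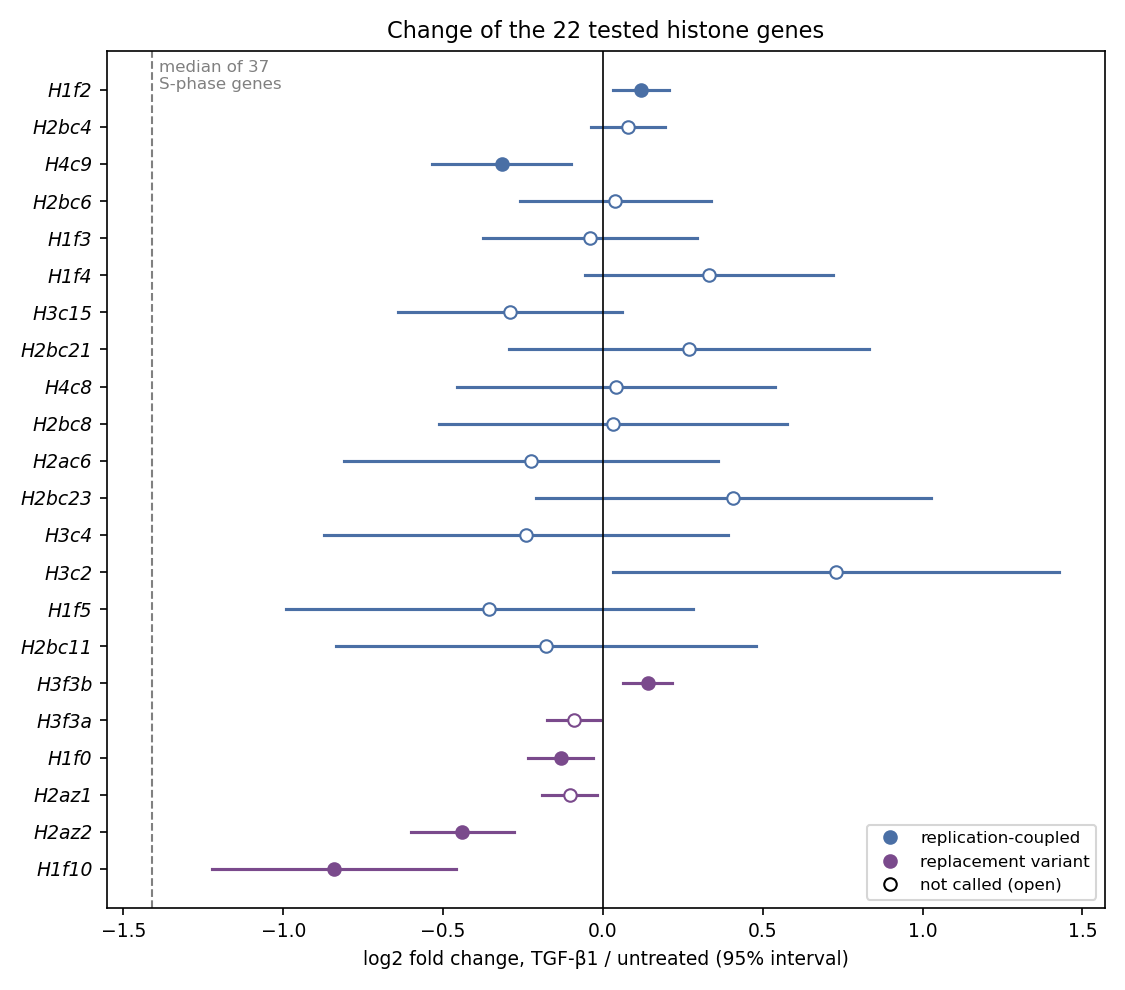
Log2 fold change (TGF-β1 over untreated) with its 95% interval for the 22 tested histone genes, ordered by total reads within each class; filled points were called and open points were not. The intervals widen from H1f2 down to H2bc11 as reads get fewer, and all lie to the right of the dashed line, the median of 37 S-phase genes at −1.41.

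Genes of DNA replication and S phase fell in the same libraries. All 37 on the list were called lower, from −3.24 for Cdc6 to −0.26 for Gins4, with a median of −1.41. Over all genes tested, 18.5% were called lower and the median was 0.01. The replicative helicase genes Mcm3, Mcm5 and Mcm6 changed by −1.95 ± 0.07, −2.92 ± 0.11 and −1.69 ± 0.07, and Uhrf1, which maintains DNA methylation behind the fork, by −2.70 ± 0.09 (edgeR adjusted p = 1.25e-15, 4.21e-15, 8.46e-15 and 1.03e-15). The summed level of all 37 genes on the list was 870 to 921 CPM untreated and 385 to 400 CPM treated. That of the 64 replication-coupled histone genes was 381 to 410 CPM and 406 to 439 CPM. The 95% intervals of all 16 tested replication-coupled genes lay above −1.41, the lowest bound being −0.99 for H1f5. The fold changes of H1f5, H4c9 and H3c15 (−0.36, −0.32 and −0.29) lay within the range of the list, and those of the others above it. Without H1f2 and H2bc4, the other 62 genes summed to 55.4 ± 2.33 and 53.1 ± 2.96 CPM (SD, n = 4 and 4).

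**Figure D4:**
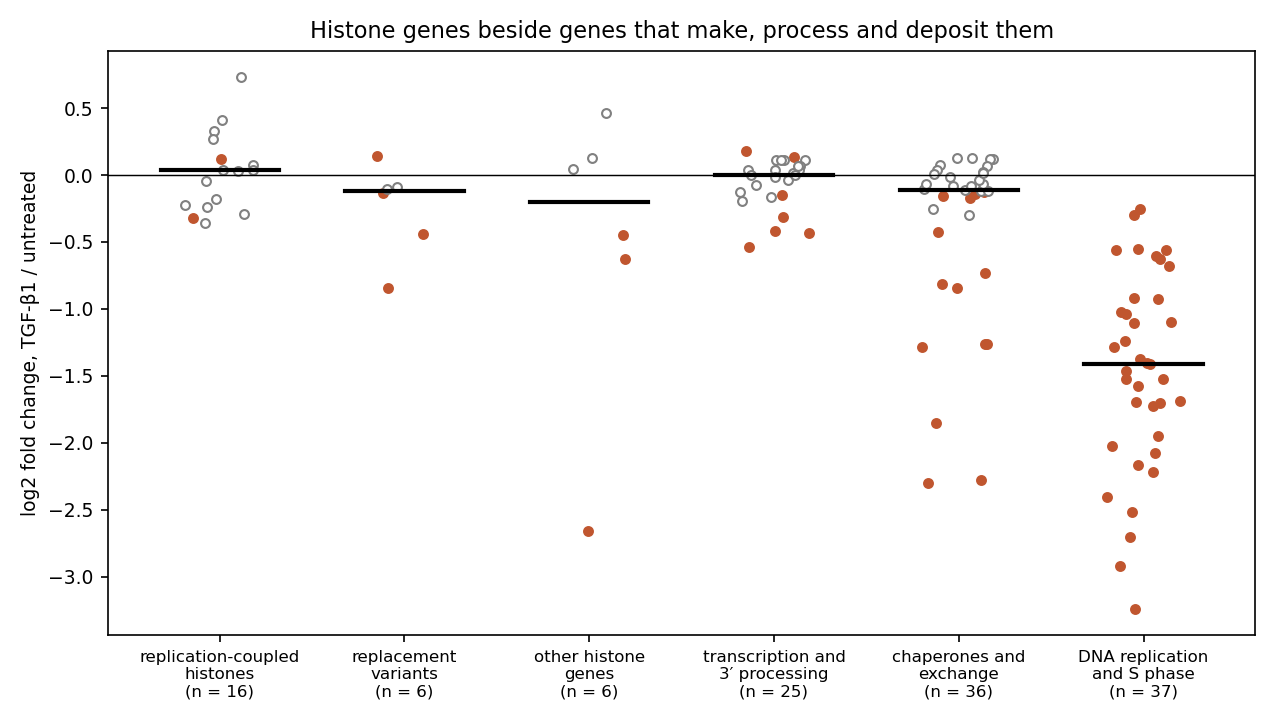
Log2 fold change (TGF-β1 over untreated) of each tested gene in 6 groups; filled points were called, open points were not, and bars mark medians. The 16 replication-coupled histone genes centre on 0.04 and the 37 S-phase genes on −1.41.

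Among histone genes outside the 74, 3 of 6 tested were lower and none was higher, with a median log2 fold change of −0.20, beside 18.5% lower and a median of 0.01 over all genes tested. Cenpa encodes the histone H3 variant of centromeres, which is made and loaded around mitosis. Its level was 16.4, 16.7, 15.3 and 16.3 CPM untreated and 2.18, 2.76, 2.88 and 2.38 CPM treated, a log2 fold change of −2.66 ± 0.12 (edgeR adjusted p = 9.63e-14). The H2A variant gene H2ax, whose product is phosphorylated at DNA breaks and which carries the stem-loop, went from 28.6 to 33.3 CPM untreated to 17.6 to 22.5 CPM treated (−0.63 ± 0.08, edgeR adjusted p = 1.72e-06). Macroh2a2 fell by 0.45 ± 0.10 on the log2 scale (edgeR adjusted p = 0.00121). Macroh2a1, the other macroH2A gene, had 64.9 ± 3.56 and 67.0 ± 4.09 CPM (SD, n = 4 and 4; edgeR adjusted p = 0.569).

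Factors that transcribe histone genes or process their mRNA were higher in 2 of 25 tested cases and lower in 5, with a median of 0.00. Over all genes tested, 17.6% were higher, 18.5% were lower and the median was 0.01, so the lower calls came at about the general rate. Slbp, the stem-loop binding protein gene, had 26.4 to 30.5 CPM untreated and 17.2 to 21.4 CPM treated (−0.54 ± 0.08, edgeR adjusted p = 1.42e-05). Casp8ap2, a component of histone locus bodies, changed by −0.44 ± 0.08, and Eri1, an exonuclease that trims and degrades stem-loop mRNA, by −0.42 ± 0.08 (edgeR adjusted p = 8.61e-05 and 0.000154). Npat, the transcriptional coactivator of the replication-coupled clusters, was also called lower, at −0.31 ± 0.07 (edgeR adjusted p = 0.00211). Sympk, a scaffold of the cleavage machinery shared with polyadenylation, rose by 0.18 ± 0.04 (edgeR adjusted p = 0.000896), and its call was lost with library totals (0.0743).

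Histone chaperones and exchange factors were lower in 14 of 36 tested cases and higher in none, with a median of −0.11, beside 18.5% lower, 17.6% higher and a median of 0.01 over all genes tested. The 4 with the smallest p are given here. Chaf1b and Chaf1a, subunits of the assembly factor CAF-1, changed by −2.28 ± 0.15 and −1.85 ± 0.13, and Asf1b, which hands H3-H4 to it, by −2.30 ± 0.19 (edgeR adjusted p = 4.45e-11, 8.02e-11 and 1.35e-09). Nasp, a carrier of histones H3 and H4, changed by −0.73 ± 0.06 (edgeR adjusted p = 3.45e-09).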

How the data were processed

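RNA was measured in 8 libraries, 4 untreated and 4 treated with TGF-β1, grouped by the labels. The deposited table holds raw read counts per gene, and a second holds FPKM computed by the authors, proportional within a library to count over length. Per the submitters' processing notes, CASAVA, HISAT2, Subread and featureCounts were used, and the strand and multi-mapping settings are not given in the sources used here. Of genome builds, the notes name GRCm38 and the series design names mm39. The file's coordinates overlapped the same GRCm39 gene for all 21778 coding genes matched to GENCODE M39, so they are read as GRCm39.

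Genes were kept by filterByExpr at its defaults, and 13960 passed. These ask for 15 reads in total and, in at least 4 libraries (the size of a group), the level of 10 reads at the median library size. After TMM scaling, treated and untreated counts were compared in R 4.3.3 by the two-sided quasi-likelihood test of edgeR 4.0.16, with group as the only term and Benjamini-Hochberg adjustment over all genes. The biological coefficient of variation was 6.27%. CPM are counts over the TMM-scaled library total. SE is the log2 fold change over the root of F, and 95% intervals use the moderated t quantile. The script was first tested on simulated data. In 12 replicate pairs the median chi-square per gene was 2.08 to 3.16 times sampling noise, so no library was taken as a duplicate.

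The members and lists were chosen with earlier results of these data known. All members past the filter are described, in each list the called genes with the lowest p (at most 4), and Slbp, H2ax, Cenpa and Macroh2a1 always. Cdc6, Gins4 and Npat were named after their values were seen. As alternatives, scaling used RLE, upper quartiles or plain totals, the filter was dropped or raised to 30 reads, and DESeq2 1.42.0 or limma 3.58.1 (log2 of FPKM plus 1 or plus 0.1) replaced edgeR. Others took replicate numbers as a block, left out single libraries, removed ribosomal RNA genes and Lars2, or totalled protein-coding genes only. A search of 64-base exonic windows over both strands of GRCm39 gave the share found elsewhere.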

Additional observations from a re-analysis of the deposited data

Results flagged for a closer look

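In 3 of 44 groups of 4 libraries, 1 library lay far from the others (a gap, as a share of the range, above Dixon's 95% critical value, which chance exceeds in about 1 in 20 groups). H2ac6 was at 2.32 CPM in treated replicate 4, against 1.24 to 1.34 CPM in the other treated libraries. H3c4 was at 0.634 CPM in treated replicate 1, against 1.59 to 1.69 CPM in the others. H3c2 was at 2.25 CPM in the same library, against 1.59 to 1.67 CPM. None of these genes was called.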

How the results depend on the processing

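The calls of H2az2 and H1f10 held in all 19 alternatives. The count of genes called was within 1.5 times the 5030 in each. Replication-coupled genes called lower were 2 with limma at both pseudocounts and 0 to 1 without single libraries; those called higher were 0 with upper-quartile scaling, library totals and limma at both pseudocounts, 2 with the replicate block, and 0 to 1 without single libraries. Replacement variants called lower were 5 with upper-quartile scaling and library totals and 2 to 4 without single libraries, and those called higher were 0 with library totals. With library totals the median of all genes moved by −0.080, and genes that were not called took the other sign: H2bc4 (−0.0016), H2bc6 (−0.042), H4c8 (−0.041), H2bc8 (−0.046) and Macroh2a1 (−0.037). Without single libraries, log2 fold changes ran from −0.17 to 0.028 for H1f3, −0.072 to 0.11 for H2bc6, −0.085 to 0.20 for H2bc8 and −0.038 to 0.14 for H4c8, none called.

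No pairing of the libraries by replicate number was visible, though 4 same-numbered pairs are too few to exclude one. Same-numbered libraries correlated at −0.18 to 0.11 in their deviations from the group mean (5735 genes), others at −0.20 to 0.24, and 0 of 4 untreated libraries correlated best with its own number. With the replicate number as a block, 2 replication-coupled genes were called higher and 1 lower, and 1 replacement variant higher and 2 lower. At 1 to 2 CPM, intervals of single genes were up to 1.40 log2 units wide, so small changes of the rarely read genes were not detectable at this depth.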
